A study of Homo sapiens with 2 samples.

Results

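The regions described here are the leading rows of a deposited list of narrow HMGB2 regions, those that stand before row 280 in the order in which the authors left them. Of these leading rows, 70 lay inside a region of a second, broad list and 209 did not, and 2513 later rows, from row 280 to the end, served for comparison. They were chosen by their place in the list alone. What the order means is stated in no source used here, and it may follow the measured signal, so the place in the list was used to describe and never to support a result. HMGB2 was precipitated from IMR90 cells, which are human lung fibroblasts, with a rabbit antibody, and the recovered DNA was sequenced. The study had 1 library of RAS-infected cells labelled as senescent and 1 library of growing control cells. Both were taken at day 2, grown in 2% oxygen and made from 10 ng of precipitated DNA. The list holds regions called in senescent against growing cells, and this direction rests only on which condition its name puts before the other. No score, fold or read count came with the regions, so the depth of either library is unknown and no size of difference can be given. With 1 library per condition nothing had a replicate check, and no test between conditions was made. Intervals of shares and densities are exact binomial or Poisson 95% intervals. Those of median distances were read from the ranked distances, at a level of at least 95%. All cover the counting of regions only.

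HMGB2 belongs to the HMGB family of abundant chromatin proteins, which bind DNA with little sequence preference and bend it. Oncogenic RAS drives fibroblasts into senescence, a durable arrest of division in which cells secrete cytokines, chemokines, growth factors and proteases, together called the senescence-associated secretory phenotype (SASP). HMGB2 is known in this setting for keeping SASP gene loci out of the compacted heterochromatin that forms in senescent nuclei. A narrow call marks a short summit of signal, whereas a broad call joins neighbouring signal into a longer stretch, so a place found by both has signal that could be called at either scale.

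Positions below are in hg19, the build named in the submitters' processing notes, and whether a region lies in an exon, an intron or between genes was not determined here. All narrow regions were 264 bp long. The second deposited list held 364 broad regions, of which 311 were 500 bp long, the minimum. The other 53, of up to 6140 bp, are called wide below. Since both lists came from the same pair of libraries, a narrow region inside a broad one is a second call on the same reads and no independent observation.

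The narrow list was read as 28 consecutive stretches, each sorted from chromosome 1 towards X or Y and, within a chromosome, by start. A new stretch was begun wherever chromosome or start fell from one row to the next. Whether the list is a single ranking with tied rows was not tested. The stretches were short at the top and long below: rows 1 to 76 held 17 stretches of 1 to 24 rows, stretch 18 held 33 rows, stretch 19 held 69 and stretch 20 held 153. Since stretches are sorted by the way they were cut, the short ones show nothing about how their rows were ordered. Within the long stretches, such as stretch 20, rows stood in genome order. The limit of the leading rows fell inside stretch 20, which ran from row 179 to row 331, after its first row on chromosome 12. Of the 153 rows of that stretch 101 were thus among the leading regions, all on chromosomes 1 to 12, and 52 were not, all on chromosomes 12 to X.

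The last 5 leading rows were 4 regions on chromosome 11, in bands 11q21, 11q22.3, 11q23.1 and 11q24.3, and 1 at 7474162 to 7474426 of chromosome 12 in 12p13.31. Of these only that in 11q21 lay in a broad region (of 500 bp), and the last leading row was 0.826 Mb from the nearest one. Rows 280 to 283 were on chromosome 12, 10.2, 15.3, 11.3 and 4.34 Mb from a broad region, and the row after them was on chromosome 13, 26 Mb from one. The share of rows inside a broad region was 13.9% before the limit within stretch 20 (14 of 101) and 13.5% after it (7 of 52).

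The 70 leading rows in a broad region made up 25.1% of all leading rows (interval 20.1 to 30.6), against 31 of the 2513 later rows (1.23%, 0.840 to 1.75). By the width of that region, 22 lay in a wide one (7.89%, 5.01 to 11.7), 48 in one of 500 bp (17.2%) and 209 in none (74.9%). No later row lay in a wide region, and the exact upper limit for 0 of 2513 is 0.147% (0.119% by the limit of 3 counts). All narrow regions inside wide regions were therefore leading rows, the last of them at row 171. Seen from the broad list, the 70 rows lay in 69 broad regions. They occupied 21 of the 53 wide regions (39.6%, 26.5 to 54.0) and 48 of the 311 regions of 500 bp (15.4%, 11.6 to 19.9). Later rows occupied another 31 regions of 500 bp (9.97%). No broad region held both a leading and a later row. Among wide regions, a leading row was found in 8 of 13 over 2000 bp, 6 of 14 of over 1000 and up to 2000 bp, and 7 of 26 of up to 1000 bp, and these intervals overlap (31.6 to 86.1%, 17.7 to 71.1% and 11.6 to 47.8%).

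**Figure D1:**
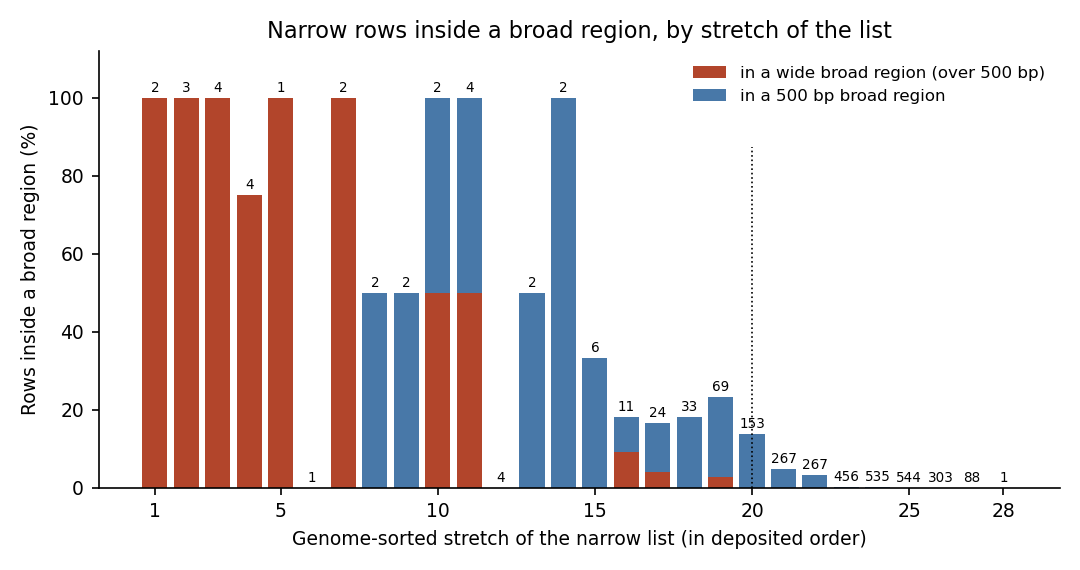
Share of narrow rows inside a broad region (y axis, percent) for each of the 28 genome-sorted stretches in deposited order (x axis), split into wide and 500 bp broad regions. Numbers over the bars are rows per stretch, and the dotted line marks stretch 20, which the rule divides after 101 of its 153 rows. The share is 100% in each of the stretches of rows 1 to 9, 23.2% in stretch 19, 4.87% in stretch 21 and 0 in stretches 25 to 28, with stretches 6 and 12 also at 0.

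Within the leading rows the share was highest at the top. Rows 1 to 12 all lay in wide regions, 11 of them in all, since rows 4 and 6 shared 1. Of rows 1 to 13, 12 lay in a broad region, with a median width of 2422 bp. Of rows 14 to 35, 14 of 22 did, 6 of them in a wide one, and from there the median width was 500 bp. Rows 36 to 76 had 8 of 41 in a broad region (19.5%), rows 77 to 178 had 22 of 102 (21.6%) and the leading rows from 179 on had 14 of 101 (13.9%), the last with no wide region among them. Past the limit the share fell further, to 4.87% in stretch 21 (13 of 267) and 3.37% in stretch 22 (9 of 267), and it was 0 in stretches 25 to 28. Thus 22 of 22 rows in wide regions stood in rows 1 to 178, where the share in any broad region was 31.5% (56 of 178).

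The places of the regions in the 2 lists ran together. Across the 70 leading rows in a broad region, the narrow row and the row of its broad region had a Spearman correlation of 0.85, and it was 0.92 for the 22 in wide regions and 0.68 for the 48 in regions of 500 bp. These values describe 2 orderings made from the same libraries and have no test. The broad list, cut in the same way, gave 42 genome-sorted stretches. Of the broad regions in rows 1 to 91 of their own list, 34 held a leading narrow row (37.4%), against 15 in rows 92 to 182 (16.5%), 9 in rows 183 to 273 (9.89%) and 11 in rows 274 to 364 (12.1%).

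**Figure D2:**
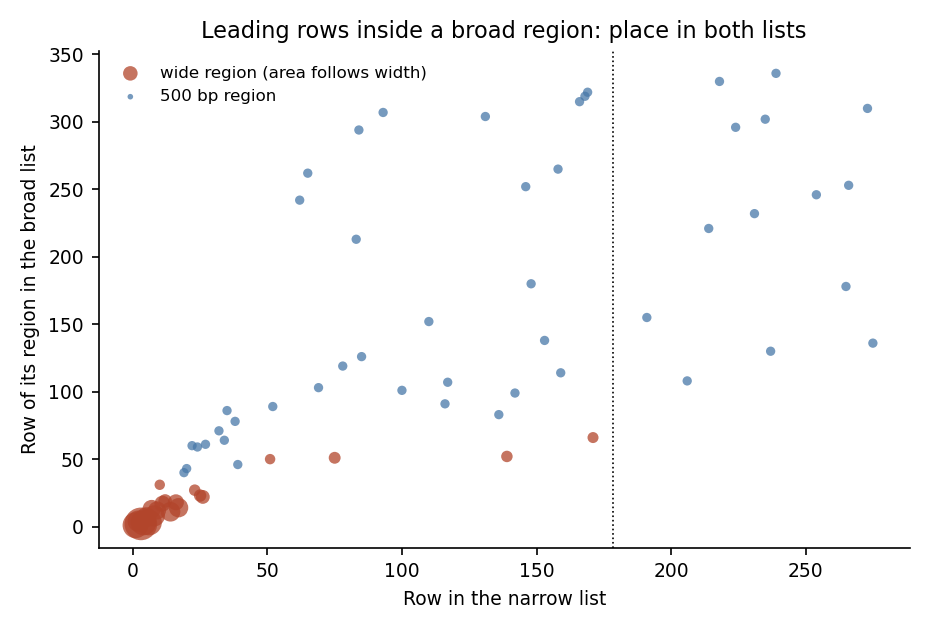
Row in the narrow list (x axis) against the row of the broad region that holds it (y axis) for the 70 leading rows inside a broad region, with point area in proportion to the width of the broad region. Wide regions gather at the lower left, in rows 1 to 66 of the broad list, whereas regions of 500 bp run from row 40 to row 336; the dotted line marks the end of the last whole stretch, at row 178.

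The leading rows in wide regions are given here by locus, starting with chemokines. Band 4q13.3 held 5 leading rows, the most of any band, and all 5 lay in a broad region. It is the band of the genes of CXCL8, CXCL6, CXCL5, CXCL3, CXCL2 and CXCL1, chemokines that attract neutrophils, and of AREG and EREG, which encode ligands of the epidermal growth factor receptor. Rows 6 and 4, at 74608555 to 74608819 and 74609552 to 74609816 of chromosome 4, lay 733 bp apart in a single wide region of 3788 bp. It was the only broad region with more than 1 leading row. Row 6 had exactly the centre of that region, and row 4 lay 997 bp from it. Rows 11 and 16, at 74737554 and 74860188, lay in wide regions of 1462 and 1484 bp, with their centres 143 and 54 bp from the centres of those regions. Row 24, at 74526589, shared its centre with a region of 500 bp. The 4 gaps between neighbouring leading rows here were thus 0.733, 81.7, 122 and 128 kb. The band also held 9 later rows.

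Matrix-degrading enzymes come next. Band 11q22.2, which has 12 protein-coding genes, held rows 5 and 17. It is the band of MMP1, MMP3, MMP10, MMP12 and MMP13, matrix metalloproteinases that cut collagens and other matrix proteins. Row 5, at 102659511 to 102659775 of chromosome 11, lay in a wide region of 2274 bp, and row 17, at 102705314 to 102705578, lay 45.5 kb away in another of 2156 bp. Between them lay wide regions of 1838 and 1064 bp that held no narrow row, at 1.95 and 7.34 kb from row 5. TIMP2, an inhibitor of metalloproteinases, shares band 17q25.3 with row 51 and with BIRC5, a cell division gene of the cell cycle list, and SOCS3, a cytokine feedback inhibitor looked up after the values were seen. Row 51 lay at 76374546 of chromosome 17 and began 47 bp before a wide region of 628 bp. That band holds 106 protein-coding genes and its length differs between builds, so the pairing is loose.

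The other secreted factors named here had 1 or 2 leading rows in their band. Many had none: of the 47 SASP genes, 26 had any leading row in their band (55.3%, against 34.3% of all protein-coding genes). Row 14 shares its band 17q21.1, of only 0.300 Mb, with 14 protein-coding genes, among them CSF3, a growth factor of granulocytes. It stood at 38174299 to 38174563 of chromosome 17 in a wide region of 2226 bp. STC1, which encodes a secreted hormone, shares 8p21.2 with row 139, at 23620264 of chromosome 8, whose centre was that of a wide region of 760 bp. Another 2 wide regions of 8p21.2 lay 77.4 and 90.8 kb from that row and held none. ICAM1, a leukocyte adhesion molecule, and ANGPTL4, a secreted regulator of lipoprotein lipase, lie in 19p13.2 with row 26, at 12904694 of chromosome 19, in a wide region of 1108 bp. Band 19p13.2 has another length in the second build, and in the gene table the AP-1 subunit JUNB falls in the neighbouring band 19p13.13, so the join does not show which of these genes is nearest. IL6 lies in 7p15.3 with row 136, at 22498019 of chromosome 7, in a region of 500 bp.

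Of the 22 RAS-ERK feedback and immediate early genes, 8 had a leading row in their band (36.4%, against 34.3% of all protein-coding genes). For 3 of them a leading row of the band lay in a broad region (13.6%, against 11.8%). Both shares were near those of all protein-coding genes. Row 1, at 30710159 to 30710423 of chromosome 6, stood at the exact centre of a wide region of 3858 bp, which was also row 1 of the broad list. Its band 6p21.33 is that of IER3, a stress and growth factor induced gene, and the housekeeping gene TUBB, among 81 protein-coding genes. Row 7, at 76419636 of chromosome 12, began 39 bp before a wide region of 1934 bp in 12q21.2. PHLDA1, an immediate early gene, lies in that band of 16 protein-coding genes. A wide region of 936 bp with no narrow row lay 5.70 kb from row 7. SPRY2, which dampens growth factor signalling through RAS, lies in 13q31.1, which has 7 protein-coding genes. Row 100 lay there, at 80907034 of chromosome 13 in a region of 500 bp. A wide region of 834 bp lay 6.70 kb from that row and held none. CEBPB, a transcription factor of SASP genes and a member of the AP-1, C/EBP and NF-kB list, lies in 20q13.13 with row 23, at 49252396 of chromosome 20, in a wide region of 764 bp. Another 2 wide regions of that band, at 40.4 and 55.6 kb, held no narrow row.

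The remaining rows in wide regions lay in bands with few or no genes of the lists. Row 2, at 56643989 of chromosome 16, lay 583 bp from the centre of a wide region of 2624 bp in 16q12.2. The length of 16q12.2 differs between builds, so the join by band may miss the genes nearest to this row. The metallothionein genes MT2A and MT1X, looked up after the values were seen, fall in 16q13 in the gene table. Row 3, at 113586578 to 113586842 of chromosome 2, lay in the widest broad region of all, of 6140 bp, 538 bp from its start and 2400 bp from its centre. It falls in 2q13, the band of the mitotic checkpoint kinase gene BUB1 in the gene table, whereas the interleukin gene IL1B falls in the bordering band 2q14.1. The length of 2q13 differs between builds, so neither pairing is settled. A second wide region of 2q13, of 882 bp, lay 6.13 kb from row 3 and held no narrow row. Row 8, at 57921091 of chromosome 17, lay in a wide region of 2570 bp in 17q23.1, a band of 9 protein-coding genes that also holds the microRNA gene MIR21, named here after its place was seen. Row 9, at 49470731 of chromosome 19, lay 88 bp from the centre of a wide region of 1878 bp in 19q13.33, the band of the ferritin light chain gene FTL, likewise named afterwards. Row 12, at 6647819 of chromosome 12, shared its centre with a wide region of 1060 bp in 12p13.31, the band of the glycolytic gene GAPDH. Row 10 in 1p32.3 (band of the cell cycle inhibitor gene CDKN2C) and row 25 in 16p13.3 shared their centres with wide regions of 626 and 886 bp. Band 16p13.3 is that of the long neuronal gene RBFOX1, a control, and of TNFRSF12A, looked up after the values were seen. That band holds 202 protein-coding genes, so both pairings are loose. Row 75 in 21q22.3 (band of the collagen gene COL6A1) and row 171 in 19q12 (band of the cyclin gene CCNE1) shared theirs with wide regions of 816 and 700 bp. In bands with a leading row in a region of 500 bp lay the cell cycle kinase gene CDK1 (10q21.2, row 146), the smooth muscle actin gene ACTA2 (10q23.31, row 266) and the long neuronal gene CNTN5 (11q22.1, row 65).

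The position of a narrow row within its broad region differed with the width of that region. Of the 48 leading rows in regions of 500 bp, 47 had the same centre as the region, and the other lay 65 bp off, which was row 136 in 7p15.3. All 31 later rows in regions of 500 bp had the same centre. Of the 22 leading rows in wide regions, 8 had the same centre. The other 14 lay at a median of 362 bp from it, 9 towards lower and 5 towards higher positions, with row 3 the farthest at 2400 bp. All 48 rows in regions of 500 bp and 20 of the 22 in wide regions lay wholly inside, and rows 7 and 51 reached past the edge.

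Wide regions without a narrow row numbered 32. A leading row lay within 100 kb of 9 of them and within 1 Mb of 13, and their median distance to the nearest leading row was 1.77 Mb. Some of the widest broad regions were far from any leading row: those of 3544 and 2578 bp in 10q22.2 lay 12 Mb from the nearest one, that of 3436 bp in 1q21.3 lay 12.1 Mb away, and those of 2956 and 2264 bp in 19q13.42 lay 2.89 Mb away.

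The gene lists were read against bands, since no annotation of the build of the files was used, and sharing a band of several megabases says nothing of the gene nearest to a row. The lists were chosen with earlier results of these data known, so their counts are descriptions. Of 20037 protein-coding genes, 5.54% lay in 1 of the 18 bands with a leading row inside a wide region. Of the 47 SASP genes 18 did (38.3%). These 18 genes lay in only 6 of the 29 SASP bands, and 13 of them in 4q13.3 and 11q22.2. For the RAS-ERK feedback and immediate early genes it was 2 of 22 (9.09%), for AP-1, C/EBP and NF-kB factors 1 of 13 (7.69%), for fibroblast and matrix genes 1 of 12 (8.33%), for cell cycle genes 3 of 12 (25%) and for arrest genes 1 of 6 (16.7%). The control lists had 1 of 10 long neuronal genes and 2 of 6 housekeeping genes (33.3%). The housekeeping share was thus near that of the SASP list, on 6 genes only, of which each counts for 16.7% of the list. Of the 18 SASP genes, TIMP2, ICAM1 and ANGPTL4 lie in bands whose length differs between builds. Among the SASP genes not counted, so do IL1A and IL1B in 2q14.1, MMP14 and TIMP1. The counted cell cycle genes BUB1 and BIRC5 also lie in such bands.

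With all 62 bands holding a leading row inside any broad region, which hold 11.8% of protein-coding genes, the SASP count was 20 of 47 (42.6%), with IL6 among the additions. For the 217 bands with any leading row the background was 34.3% and the SASP count 26 (55.3%). The 8 SASP genes in bands with a leading row outside every broad region (17%) included IL6, LIF, MMP14, IGFBP3, HGF, VEGFA and FGF2, against a background of 27.0%. In the bands of the next set of equal size, from row 280 on, the SASP count was 19 of 47 (40.4%) and the background 35.9%, with the genes of 4q13.3 again among them. The SASP share was thus above the background for bands of leading rows inside broad regions and below it for bands of those outside. Other counts for bands with any leading row were 8 of 22 for the RAS-ERK list (36.4%), 5 of 13 for AP-1, C/EBP and NF-kB (38.5%), 5 of 12 for fibroblast and matrix (41.7%), 4 of 12 for cell cycle (33.3%), 3 of 6 for arrest, 5 of 10 for long neuronal and 2 of 6 for housekeeping genes (33.3%).

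The 209 leading rows outside every broad region were a median of 2.33 Mb from the nearest one (interval 1.72 to 3.06), against 3.29 Mb (3.03 to 3.61) for the 2481 later rows outside with a broad region on their chromosome. Within 1 Mb of a broad region lay 58 of these leading rows (27.8%, 21.8 to 34.3) and 470 of the later ones (18.9%, 17.4 to 20.5). Within 100 kb the counts were 12 (5.74%, 3.0 to 9.81) and 50 (2.02%, 1.5 to 2.65). The median was 2.33 Mb in rows 1 to 76, 1.75 Mb in rows 77 to 178 and 3.13 Mb in the leading rows from 179 on, with overlapping intervals. In the rest of stretch 20, after the limit, the 45 rows outside had a similar median of 3.19 Mb (1.83 to 4.81). Within 1 Mb lay 26.7% of those 45, against 24.1% of the leading rows outside from 179 on. Over all leading rows, those inside included, the median was 1.40 Mb, against 3.22 Mb over the later rows.

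Of the 364 broad regions only 53 were wide, so few rows can be nearest to a wide one. None of the 12 leading rows outside but within 100 kb of a broad region was. The closest was row 31, at 59073804 of chromosome 19 in 19q13.43, only 40 bp from a region of 500 bp. Row 13, at 30194819 of chromosome 20 in 20q11.21, lay 607 bp from one and was the highest row outside every broad region. Rows 45, 162 and 268, in 11q13.1, 15q11.2 and 10q24.32, followed at 8.98, 11.7 and 11.8 kb, and 10q24.32 is the band of the NF-kB subunit gene NFKB2. The farthest was row 264, in 10p11.22, at 23.8 Mb, followed by row 194 in 2p24.3 at 17.6 Mb, row 196 on chromosome 2 at 16.4 Mb and rows 263 and 145 in 10p12.1 at 15.8 and 15.7 Mb.

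**Figure D3:**
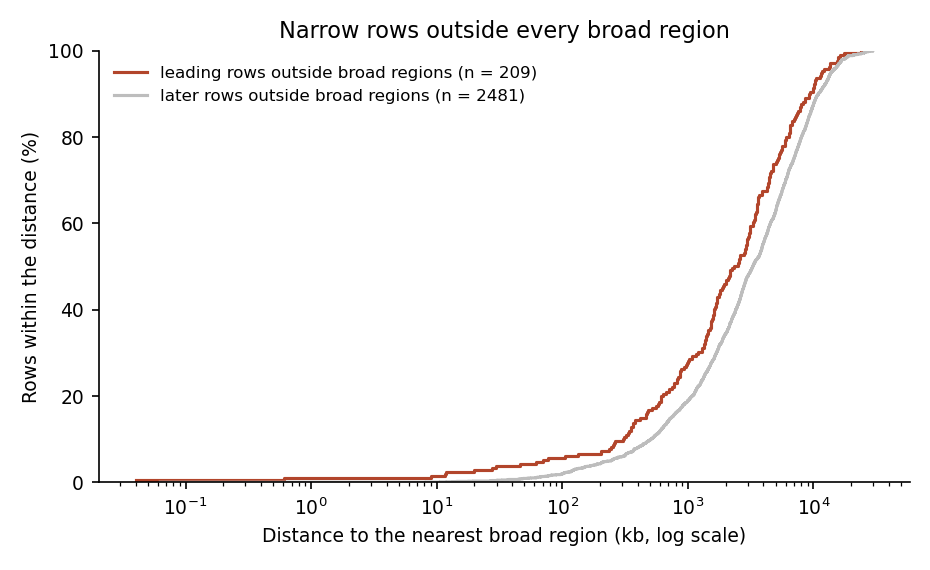
Cumulative share (y axis, percent) of narrow rows that lie outside every broad region, by distance to the nearest broad region in kb (x axis, log scale), for the 209 leading rows and the 2481 later rows. The leading rows run to the left of the later ones, with 27.8% against 18.9% within 1 Mb.

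Among themselves the leading rows were a median of 3.50 Mb apart (nearest neighbour, 278 rows with another on their chromosome). Within 100 kb of another leading row lay 21 (7.53%, 4.72 to 11.3). In the 9 later sets of the same size (281 in the last), the count was 2, 2, 12, 2, 16, 12, 12, 19 and 15, in the order of the list, so the leading set had the highest count but not by a clear margin. Within 1 Mb the order was different, with 62 leading rows and 54 to 101 in the later sets. The sets match in rows but not in the chromosomes they span, so these counts do not compare like with like. Stretches 23, 24 and 25 held 456, 535 and 544 rows in genome order, and a set cut from them covers only part of the chromosomes. How far this sets the spacing was not tested. Of the 21 rows, 6 lay in a broad region (8.57% of the 70) and 15 in none (7.18% of the 209), so closeness was about as common in both.

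The 21 rows formed 11 neighbouring pairs. After the pair in 4q13.3, 733 bp apart, the closest were rows 184 and 185 in 1p32.1 (27 kb), rows 82 and 83 in 2q34 (27.5 kb), rows 193 and 81 in 1q43 (37.6 kb) and the metalloproteinase pair of 11q22.2 (45.5 kb). Band 1p32.1 has 8 protein-coding genes and is that of JUN, the AP-1 subunit, and another leading row there, row 78, lay in a broad region of 500 bp. Band 11q13.1 held 3 leading rows, at 65181613, 65275021 and 65658684 of chromosome 11, the first of them 8.98 kb from a region of 500 bp and all outside broad regions. It is a band of 99 protein-coding genes, among them FOSL1, an AP-1 subunit induced by ERK signalling, and RELA, an NF-kB subunit. The long non-coding RNA genes MALAT1 and NEAT1 also lie there, and all 4 were named after the values were seen. When narrow regions of any row counted as neighbours, 62 leading rows lay within 100 kb of one (22.2%, 17.5 to 27.6), against 552 later rows (22%, 20.4 to 23.6). These shares differed by less than their intervals.

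The chromosomes must be read with the limit in stretch 20 in mind. On chromosomes 1 to 11, 197 of 1901 narrow regions were leading rows (10.4%), 100 of them from stretch 20. On chromosomes 13 to 22, X and Y it was 67 of 771 (8.69%), none from stretch 20, whose 48 rows there came after the limit. With stretch 20 taken whole (rows 1 to 331), the shares became 10.4% and 14.9%, and with it left out (rows 1 to 178) 5.10% and 8.69%. The order of the 2 sets of chromosomes thus turned with the limit. For chromosome X the share was 4.71% among the leading rows (8 of 170) and 11.8% with stretch 20 whole, and for chromosome 18 it was 3.90% (3 of 77) and 11.7%.

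Chromosome 19 held the most leading rows per Mb under each of these choices. It had 10, or 0.169 per Mb (0.0811 to 0.311), against 0.0901 over the genome, and they were 17.5% of its 57 narrow regions (8.75 to 29.9). With stretch 20 whole it had 14, or 0.237 per Mb. Of the 10, 8 stood in rows 1 to 76, 5 lay in a broad region and 3 in a wide one. Chromosome 11 followed with 21 (0.156 per Mb, 0.0963 to 0.238), of which 10 came from stretch 20, and chromosomes 7, 1 and 12 with 0.119, 0.112 and 0.112 per Mb. The lowest were chromosome 22 with 1 row (0.0195 per Mb, 0.000493 to 0.109) and chromosome Y with none. Most of these intervals overlap, so the order of the chromosomes is not settled. Chromosome 4 had the most leading rows in broad regions, 9 of 19, of which 5 lay in 4q13.3. On chromosome 5 it was 1 of 12, although the broad list held 24 regions on chromosome 5 and 19 on chromosome 4.

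**Figure D4:**
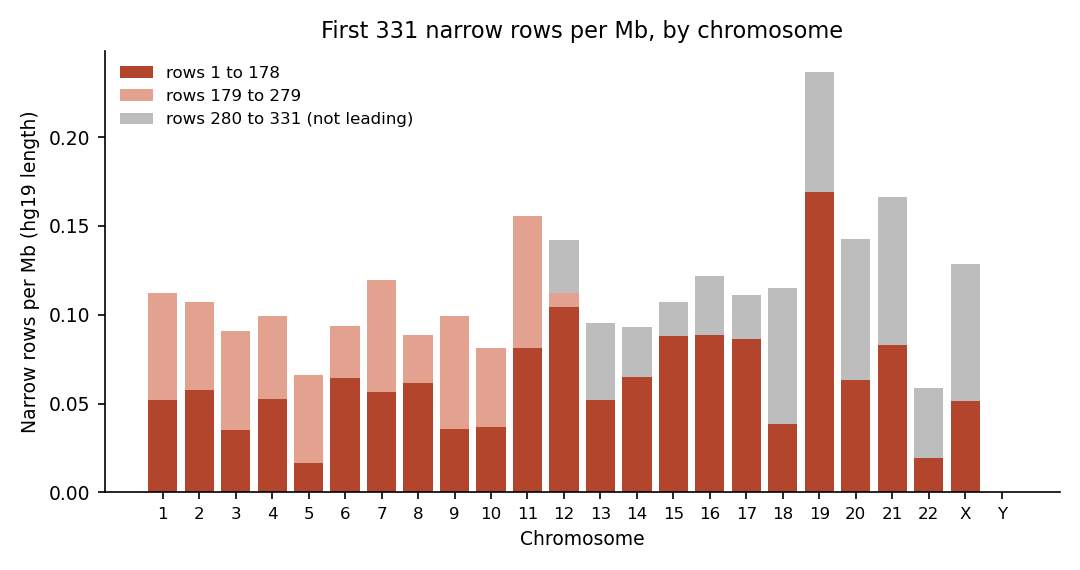
Narrow rows per Mb of hg19 length (y axis) on each chromosome (x axis) for rows 1 to 178, the leading rows from 179 on and rows 280 to 331, stacked. The leading rows are the 2 red parts; the grey part is the rest of stretch 20, which the limit leaves out on chromosomes 12 to X. Chromosome 19 is highest with and without it.

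Giemsa staining divides chromosomes into light bands, which are richer in genes, and dark bands, which are poorer in genes and richer in A and T. Leaving out centromere, stalk and variable bands, light bands make up 46.0% of the hg19 length and the 2 darkest classes 31.8%. The leading rows changed along the list in this respect. In rows 1 to 76, 47 of 75 lay in light bands (62.7%, 50.7 to 73.6) and 15 in dark ones (interval 11.6 to 30.8%). In rows 77 to 178 it was 43.6% light and 34.7% dark (44 and 35 of 101), and in the leading rows from 179 on it was 35 and 43 of 100. The intervals of rows 1 to 76 and of the leading rows from 179 on do not overlap for either class. Stretch 20 taken whole gave 39.9% for both classes, and of its rows after the limit 24 of 48 were light and 16 dark. The later rows were 40.3% light and 41.4% dark.

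The light bands at the top of the list were not only those of broad regions. In rows 1 to 76, the light share was 58.8% among the 34 rows inside a broad region (40.7 to 75.4) and 65.9% among the rest (27 of 41, 49.4 to 79.9). Over all leading rows it was 66.7% for those in wide regions (14 of 21), 39.6% for those in regions of 500 bp (19 of 48) and 44.9% for those outside (93 of 207). A leading row was found in 217 bands, of which 170 held exactly 1, 35 held 2 and 12 held 3 or more. After 4q13.3 with 5 rows came 12p13.31 with 4, the band of GAPDH, of which 2 lay in a broad region.

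**Figure D5:**
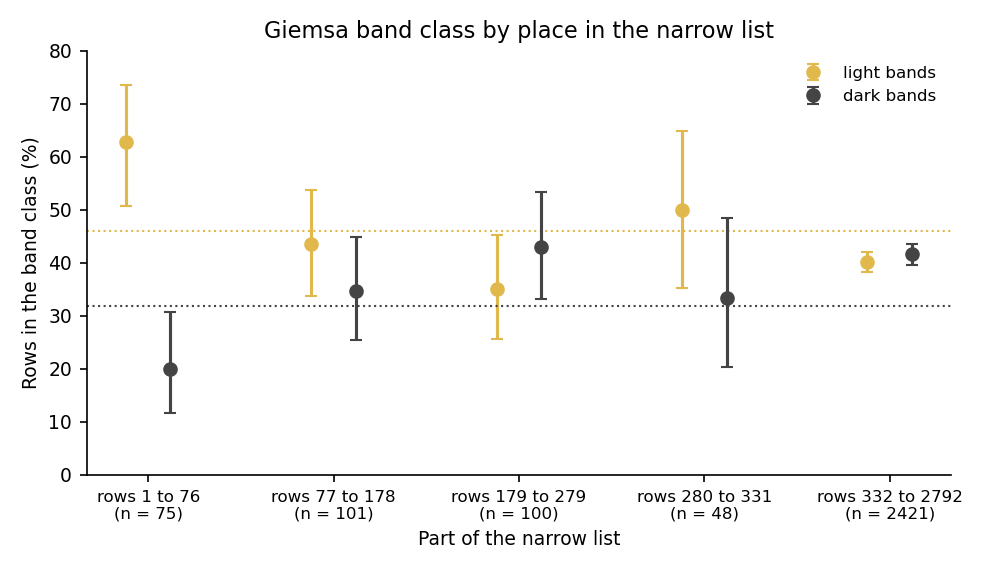
Share of narrow rows in light and in dark Giemsa bands (y axis, percent) by part of the narrow list (x axis), with exact binomial 95% intervals; dotted lines give the share of each class in the hg19 length. Rows 1 to 76 lie at 62.7% light, above the dotted line for light bands, and the rows from 332 on at 40.1% light and 41.6% dark.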

How the data were processed

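The authors deposited 2 lists of regions with no values but base positions in bp, per the file headers (identifier, chromosome, start, end), and other numbers such as a score or fold are not in them. Bowtie 0.12.9, HOMER 1.0 and hg19 are named, with no role or order, per the submitters' processing notes. Calling settings, filters, the use of an input and whether positions count from 0 or 1: not given in the sources used here.

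From these lists the overlap (at least 1 bp), edge-to-edge distances, spacing, counts per chromosome and Giemsa classes of rows 1 to 279 of 2792, the leading rows, and of rows 280 to 2792 were computed with Python 3.11.15, numpy 2.4.6, pandas 2.3.3 and scipy 1.17.1. Figures used matplotlib 3.10.9. Stretches were cut wherever chromosome or start fell from one row to the next. Counting was tested on simulated data. Chromosome lengths came from GenomeInfoDb 1.38.1 and bands from circlize 0.4.16 (R 4.3.3). Gene names came from a RefSeq table of GRCh38.p14, placed in GRCh38 bands and joined by band name to regions in hg19 bands, with no coordinates converted. A band length differs between builds where it does so by over 100 kb. All list symbols were matched. No sequence of hg19 was used here.

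The regions and gene lists were chosen with earlier results of these data known. Loci named are rows 1 to 10, every row in a wide region, broad regions with 2 or more leading rows, the 5 nearest and 5 farthest rows outside, the 5 closest pairs and rows 275 to 284. Genes named are list members in the band of such a row inside a broad region, and other names were added after the values were seen. Some list members are not reported here by name. No test was made, since the order may follow the signal and each group has 1 library. Alternatives varied the overlap rule, the rows taken, the width limit, distances, band classes and chromosome length. The division by stretches was added after the lists were seen.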

Additional observations from a re-analysis of the deposited data

How the results depend on the processing

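The share of leading rows in a broad region was the same to within its interval under all 5 other rules of overlap, chromosomes or position counting (25.1 to 25.8%) and in rows 1 to 331 (23.3%). It moved with the rows taken: 32.9% in rows 1 to 140, 31.5% in rows 1 to 178, 17.7% in the leading rows from 77 on and 15.6% in a set of 2 times the size. The share in wide regions was 12.4% in rows 1 to 178 and 0.985% from row 77 on. The median distance to a broad region was 0.612 Mb in rows 1 to 140, 0.845 Mb in rows 1 to 178, 2.02 Mb in the set of 2 times the size, 2.33 Mb for rows outside broad regions and 25.9 Mb to wide regions alone, the last over the 196 rows with one on their chromosome. By construction, close leading rows numbered 2 within 10 kb and 62 within 1 Mb, and 3 and 232 when any row counted as a neighbour. Without rows 1 to 76, 12 lay within 100 kb of another. The dark share was 16.7% with the darkest class only and 54.3% with all stained classes. The share of later rows and the densest chromosome kept within their intervals. Of the other shifts the cause was not tested. Alternatives that end at row 178 or 331, begin at row 77 or 332, count a broad region once or take the dark share outside broad regions were chosen after seeing the data. No paired analysis was possible because there was a single library per condition. With the depth unknown, a place without a region cannot be read as a place without HMGB2.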
